A study of Mus musculus with 2 samples.

Results

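The tumour necrosis factor (TNF) receptor family costimulators are cell-surface receptors and ligands through which lymphocytes and antigen-presenting cells exchange activating signals. Here 10 genes of this family were taken from the single-cell count matrices by symbol: the 5 receptors Tnfrsf4 (OX40), Tnfrsf9 (4-1BB), Tnfrsf18 (GITR), Cd27 and Cd40, and the 5 ligands Tnfsf4 (OX40 ligand), Cd70, Cd40lg (CD40 ligand), Tnfsf8 (CD30 ligand) and Tnfsf11 (RANKL). All 10 were found among the 32285 genes of both matrices, and their levels were described by cell type and by library.

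The cells were live CD45+CD31- cells sorted from hand-picked pancreatic islets of female mice aged 12 weeks. One library came from NOD mice, an inbred strain prone to autoimmune diabetes, and the other from NOD.Cxcl16-/- mice, which carry the same background and lack the chemokine gene Cxcl16. Each group has 1 library, and the number of animals behind each was not given in the sources used here. The difference between libraries therefore has no replicate check, and all intervals below are 95% intervals that cover counting error only.

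The receptors of this family have no kinase of their own. They recruit TRAF adaptor proteins when a ligand on a neighbouring cell clusters them, and the TRAFs lead to NF-kappaB and kinase signalling. OX40, 4-1BB and GITR are known as receptors that activated T cells induce and regulatory T cells carry, CD27 is already present on resting T cells, and CD40 sits on B cells, dendritic cells and macrophages, where CD40 ligand from helper T cells licenses antigen presentation. OX40 ligand, CD70 and the 4-1BB ligand are best known from activated antigen-presenting cells, whereas CD40 ligand, CD30 ligand and RANKL are made by activated T cells, RANKL acting on the dendritic cell receptor RANK (Tnfrsf11a).

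The matrices held 13859 barcodes with 93553185 unique molecular identifiers (UMIs, counted transcripts) for WT NOD and 10554 barcodes with 98681133 UMIs for NOD.Cxcl16-/-. After filtering, 10894 and 9352 cells remained, with median depths of 4162.5 and 4999 UMIs, and 45 barcodes occurred in both libraries. Cxcl16 stood at 103 CPM (UMIs of the gene in every 1000000 UMIs) in WT NOD and 102 CPM in the library labelled NOD.Cxcl16-/-. The assay reads 3' ends and the deleted stretch of the gene is not given in the sources used here, so this value does not check the label. That library is called "the library labelled NOD.Cxcl16-/-" throughout. Cells were assigned to gates by marker UMIs that include none of the 10 genes. The T-cell receptor gene Trac stood at 622 to 869 CPM in the CD8, CD4 and regulatory T gates and at 1 to 9 CPM in the B and migratory dendritic gates. The summed T-cell marker list (Trac, Cd28) stood at 240 and 305 CPM in the NK gate, against 954 and 993 CPM in the CD8 T gate. Its part in the NK levels below was not tested. Pax5, a B-lineage factor, stood at 206 and 196 CPM in the B gate. The dendritic cell gene Flt3 stood at 161 and 132 CPM in the migratory dendritic gate. The summed dendritic list (Flt3, Zbtb46, Itgax) stood at 306 and 292 CPM there and at 33.7 and 35.0 CPM in the B gate. In other myeloid cells this list stood at 331 and 340 CPM, so it does not set them apart from the migratory dendritic gate. The summed regulatory T list (Ikzf2, Il2ra, Ctla4) stood at 2697 and 2882 CPM in the regulatory T gate. It stood at 1119 and 1193 CPM in the CD4 T gate and 526 and 723 CPM in the CD8 T gate. The CD4 T gate requires that no Foxp3 UMI was counted, so it can hold regulatory T cells with Foxp3 missed. A total of 18.7% of the WT NOD cells and 15.8% of the others stayed ungated. The ungated cells held 47.8% and 51.1% of all Cd40 UMIs and 37.9% and 59.5% of the Cd70 UMIs, so the levels of these genes below describe the gated cells.

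Tnfrsf4, Tnfrsf9 and Tnfrsf18, the 3 inducible costimulatory receptors, each had their highest T-cell level in regulatory T cells, which numbered 274 in WT NOD and 400 in the library labelled NOD.Cxcl16-/-. Levels are CPM of the summed UMIs of a gate. They are compared across gates within a gene and not between genes. Tnfrsf4 lies at chr4:156013843-156016612 on the plus strand in GRCm38, with up to 7 exons in a transcript. Tnfrsf18 lies 9551 bases downstream at chr4:156026164-156028895, also on the plus strand. It overlaps the antisense gene Gm16008, and since the strand setting of the counting is not given in the sources used here, reads of the pair may not be separated. Tnfrsf9 lies at chr4:150914562-150946102 on the plus strand and overlaps the oppositely oriented Camta1.

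Because these 3 receptors shared the same top T gate, the 250 bases before their RefSeq transcription starts (build GRCm38.p6) are shown 5' to 3' on the plus strand, for Tnfrsf4 at chr4:156013445-156013694, Tnfrsf18 at chr4:156026072-156026321 and the second of the pair of Tnfrsf9 starts at chr4:150927749-150927998. Cd27 had the same top T gate in both libraries, and its bases are not shown. Capitals mark kappa-B and AP-1 (TGANTCA) motif matches.
Tnfrsf4: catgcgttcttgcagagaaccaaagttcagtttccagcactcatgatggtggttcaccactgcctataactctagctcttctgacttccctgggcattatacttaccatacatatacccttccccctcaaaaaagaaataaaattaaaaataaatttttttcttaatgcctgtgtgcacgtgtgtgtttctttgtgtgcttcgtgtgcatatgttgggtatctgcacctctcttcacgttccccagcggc
Tnfrsf18: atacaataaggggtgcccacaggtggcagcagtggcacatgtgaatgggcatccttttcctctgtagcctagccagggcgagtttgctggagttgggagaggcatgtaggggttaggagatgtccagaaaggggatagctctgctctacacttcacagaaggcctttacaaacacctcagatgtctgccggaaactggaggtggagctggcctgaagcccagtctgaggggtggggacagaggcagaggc
Tnfrsf9: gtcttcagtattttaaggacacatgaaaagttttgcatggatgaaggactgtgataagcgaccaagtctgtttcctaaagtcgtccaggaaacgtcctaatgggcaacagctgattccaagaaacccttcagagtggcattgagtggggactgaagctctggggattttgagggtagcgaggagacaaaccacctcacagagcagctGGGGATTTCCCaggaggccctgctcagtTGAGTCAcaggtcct
Promoter windows that ran on to 50 bases after the start were found for 6 of the 10 genes, as 7 windows, and both strands were searched. The second Tnfrsf9 window held 2 overlapping kappa-B matches, 43 and 42 bases before the start, and an AP-1 match 15 bases before it. None of the other 6 windows held either motif, and the forkhead motif TGTTTAC was in none of the 7. Among 32851 RefSeq promoter windows of the same length, 8.46% held the kappa-B motif, 7.81% the AP-1 motif and 3.65% the forkhead motif. A match is a description of the letters in the window and says nothing of binding.

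Tnfrsf4, the receptor for OX40 ligand, had the widest spread of the 3 across the T gates. In regulatory T cells it stood at 1170 CPM (interval 1121 to 1221) in WT NOD and 1252 CPM (1213 to 1292) in the one labelled NOD.Cxcl16-/-. CD4 T cells, in which no Foxp3 UMI was counted, followed at 553 CPM (536 to 571) and 553 CPM (537 to 569). CD8 T cells stood at 72.5 CPM (68.4 to 76.7) and 96.9 CPM (91.3 to 103). The intervals of these 3 gates did not overlap within either library. Gamma-delta T cells were lower still at 36.1 and 24.4 CPM, and B cells stood at 9.02 and 3.9 CPM. The 2 libraries gave nearly the same level in CD4 T cells, with a ratio of 1 (0.958 to 1.04).

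Tnfrsf9, the receptor for 4-1BB ligand, was more narrowly raised in regulatory T cells. It stood there at 465 CPM (434 to 498) in WT NOD and 390 CPM (369 to 413) in the one labelled NOD.Cxcl16-/-. The other T and NK gates lay between 82.4 and 141 CPM: CD8 T cells at 106 and 132 CPM, CD4 T cells at 89.3 and 102 CPM, gamma-delta T cells at 88.5 and 82.4 CPM, and NK cells at 141 and 123 CPM. Tnfrsf18, the GITR gene, stood at 527 CPM (493 to 561) and 437 CPM (414 to 461) in regulatory T cells, 194 and 147 CPM in CD4 T cells, 134 and 109 CPM in gamma-delta T cells and 73.2 and 66.5 CPM in CD8 T cells. It was also present in NK cells at 161 and 134 CPM and in the small ILC2 gate of 15 and 34 cells at 246 and 286 CPM. Outside these lineages it stood at 58.4 and 50.2 CPM in other myeloid cells and 33.7 and 21.6 CPM in B cells.

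Cd27, the receptor for CD70 (chr6:125232622-125237010, minus strand, overlapping Vamp1 on the other strand), showed a flatter profile. It stood at 212 and 247 CPM in regulatory T cells, 182 and 209 CPM in CD8 T cells, 158 and 160 CPM in NK cells, 133 and 154 CPM in gamma-delta T cells and 118 and 115 CPM in CD4 T cells. B cells were at 5.46 and 3.33 CPM and migratory dendritic cells at 2.54 and 1.57 CPM. The Cd27 intervals of CD8 and CD4 T cells did not overlap in either library, with CD8 T cells higher, and Tnfrsf9 showed the same order. Tnfrsf4 and Tnfrsf18 ran the other way.

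Cd40 (chr2:165055627-165072948, plus strand, up to 9 exons) was the receptor of the antigen-presenting gates. Migratory dendritic cells, 102 and 151 cells in the 2 libraries, held 376 CPM (342 to 412) in WT NOD and 257 CPM (235 to 281) in the one labelled NOD.Cxcl16-/-. Macrophages stood at 180 and 124 CPM, other myeloid cells at 116 and 99.5 CPM, and B cells at 82.9 and 83.5 CPM. Conventional dendritic cells of the cDC2 gate (28 and 56 cells) were at 135 and 102 CPM and those of the cDC1 gate (42 and 70 cells) at 93.8 and 114 CPM. The T gates lay between 0.952 and 8.41 CPM. The plasmacytoid dendritic gate had 21 cells in each library and stood at 103 and 15 CPM. In both libraries the migratory dendritic gate was thus the highest, and the B-cell interval lay below those of macrophages and other myeloid cells. The B-cell value was also below those of the small cDC1 and cDC2 gates, where intervals were not compared.

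**Figure D1:**
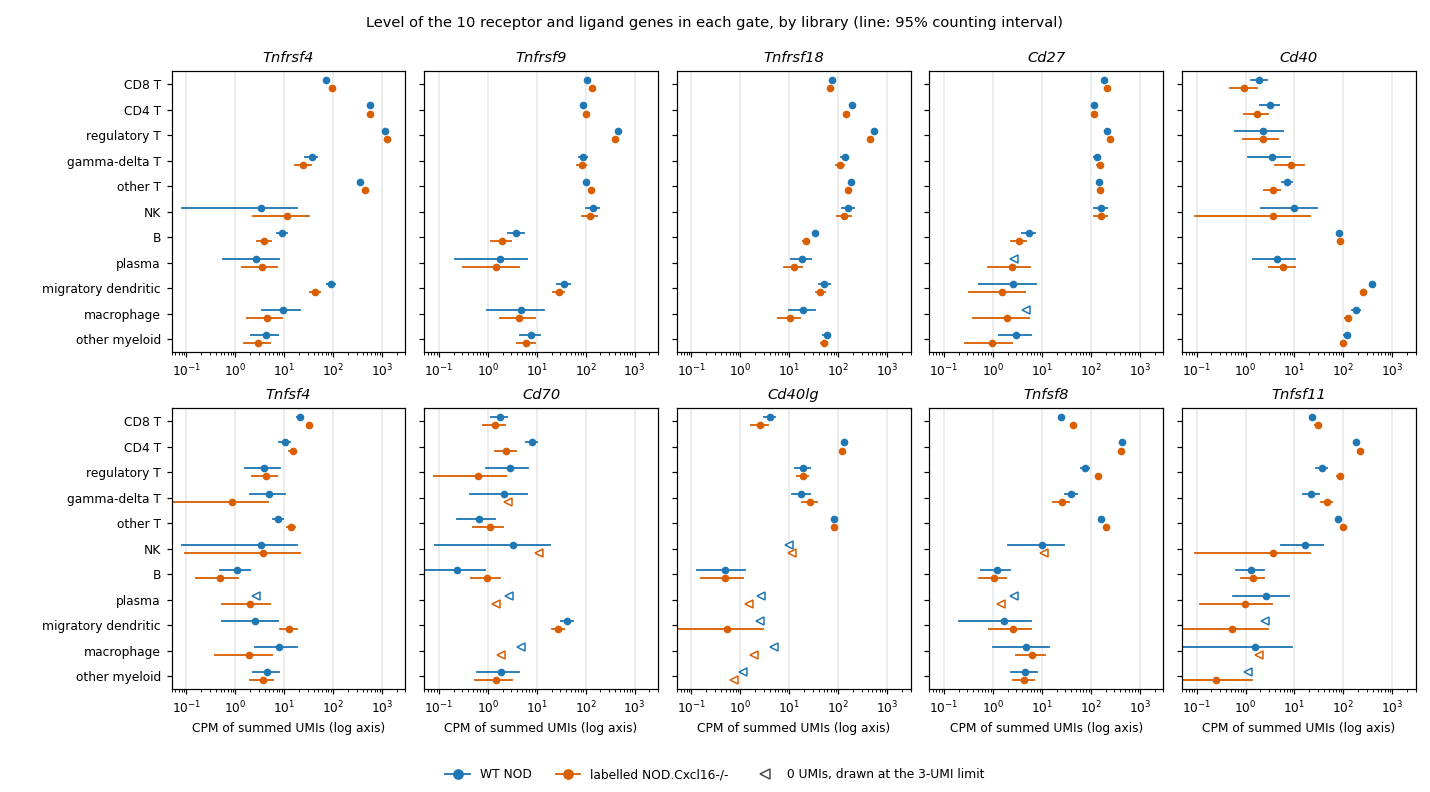
Level of each of the 10 genes (CPM of summed UMIs, log axis) in the 11 gates with at least 50 cells in each library, one panel per gene. Points are the 2 libraries with 95% Poisson intervals, and open triangles mark a gate without a UMI at the limit that 3 UMIs would give. Tnfrsf4, Tnfrsf9, Tnfrsf18 and Cd27 peak in regulatory T cells, Cd40 and Cd70 in migratory dendritic cells, and Cd40lg, Tnfsf8 and Tnfsf11 in CD4 T cells.

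The ligands divided between helper T cells, CD8 T cells and migratory dendritic cells. Cd40lg (chrX:57212143-57224042, plus strand), which helper T cells use to engage CD40, stood at 129 CPM (121 to 138) and 118 CPM (111 to 126) in CD4 T cells. Regulatory T cells held 19 CPM in each library, and CD8 T cells 4.01 and 2.51 CPM. No Cd40lg UMI was counted in NK cells, plasma cells, macrophages, cDC1, cDC2 or other myeloid cells of either library, and the migratory dendritic gate had 1 UMI over both libraries. A level of 3 UMIs would have read 1.13 and 0.731 CPM in other myeloid cells and at most 11.6 CPM in the other gates just named. The T cells that carried neither Cd4 nor Cd8 UMIs, nor Foxp3 or Trdc, together with those of mixed detection (the other T gate), stood at 80.3 and 83 CPM.

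Tnfsf8, the CD30 ligand (chr4:63831308-63861347, minus strand), was at 423 CPM (408 to 439) and 407 CPM (393 to 421) in CD4 T cells. Regulatory T cells held 75.9 CPM (63.7 to 89.8) in WT NOD and 137 CPM (125 to 151) in the one labelled NOD.Cxcl16-/-, and CD8 T cells 24.3 CPM (22 to 26.8) and 43.2 CPM (39.5 to 47.2). Tnfsf11, which encodes RANKL (chr14:78277445-78308043, minus strand), followed the same order. It stood at 183 CPM (173 to 193) and 223 CPM (213 to 234) in CD4 T cells, 36.3 CPM (28 to 46.3) and 85.5 CPM (75.6 to 96.4) in regulatory T cells and 23.1 and 29.7 CPM in CD8 T cells. The ILC2 gate was also Tnfsf11-positive, at 109 and 197 CPM. Both ligands were near 0 in B cells, at 1.05 to 1.43 CPM.

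Tnfsf4, the OX40 ligand (chr1:161395409-161418410, plus strand), had its highest level among the T gates in CD8 T cells. CD8 T cells held 20.7 CPM (18.6 to 23) in WT NOD and 31.9 CPM (28.8 to 35.4) in the one labelled NOD.Cxcl16-/-. CD4 T cells held 10.2 and 14.8 CPM, regulatory T cells 3.91 and 4.18 CPM and B cells 1.07 and 0.476 CPM. In migratory dendritic cells, a cell type known for OX40 ligand, it rested on 3 and 24 UMIs, or 2.54 and 12.5 CPM. The level of Tnfsf4 in CD8 T cells was therefore above that in B cells in both libraries and above the migratory dendritic value in both.

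Cd70, the CD27 ligand (chr17:57145997-57149777, minus strand), was sparse. Migratory dendritic cells held 41.5 CPM (30.7 to 54.8) and 27.1 CPM (20.3 to 35.6), from 49 UMIs in 16 cells and 52 UMIs in 19 cells. In each library 1 cell gave 13 or 12 of those UMIs. CD4 T cells held 7.95 and 2.36 CPM, and 25 of the 56 UMIs in WT NOD came from 1 cell. The remaining T gates and the B gate were at 0 to 2.79 CPM.

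Set side by side within each library, regulatory T cells exceeded CD4 T cells at least 2-fold in both libraries for 3 of the 10 genes, Tnfrsf4, Tnfrsf9 and Tnfrsf18. Of all 10485 genes with at least 20 UMIs over the pair of gates, 1.96% were at least 2-fold higher in this sense and 1.66% lower. Tnfrsf4 was 2.12-fold and 2.26-fold higher, Tnfrsf9 5.21-fold and 3.83-fold, and Tnfrsf18 2.71-fold and 2.98-fold. Cd27 was 1.8-fold and 2.14-fold higher and was not called. All 5 ligands were at least 2-fold lower in regulatory T cells, with log2 ratios of -2.76 and -2.64 for Cd40lg, -2.48 and -1.57 for Tnfsf8, -2.33 and -1.38 for Tnfsf11, -1.39 and -1.82 for Tnfsf4 and -1.51 and -1.87 for Cd70. In regulatory T cells Cd70 rested on 5 and 2 UMIs and Tnfsf4 on 7 and 13. The Cd70 value of WT NOD turned to 1.60 when cells were thinned to 2000 UMIs. Under the alternatives Cd70 reached -0.38 in the library labelled NOD.Cxcl16-/- and Tnfsf4 reached -0.55 in WT NOD, both inside the limit. Cd40lg, Tnfsf8 and Tnfsf11 stayed past it in both libraries. The median log2 ratio was -0.83 over the 10 genes and 0.06 over all genes tested. With cells kept only where their gate matched their expression cluster, Tnfrsf4 was under the 2-fold limit and Cd27 passed it, and Tnfrsf4 was also under it with receptor, mitochondrial and ribosomal genes left out of the total.

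CD4 T cells exceeded CD8 T cells at least 2-fold in both libraries for 5 of the 10 genes, against 4.47% of 11574 genes tested. Cd40lg was 32.1-fold and 47.1-fold higher, Tnfsf8 17.4-fold and 9.41-fold, Tnfsf11 7.91-fold and 7.52-fold, Tnfrsf4 7.63-fold and 5.71-fold, and Tnfrsf18 2.65-fold and 2.21-fold. Tnfsf4 alone ran the other way past the limit, at log2 ratios of -1.02 and -1.11, where 2.63% of genes were lower. Its highest values under the alternatives were -0.43 and -0.33, inside the limit. Tnfrsf9 (-0.24 and -0.37) and Cd27 (-0.62 and -0.86) were not called. The 5 higher genes were called under every alternative run for this pair of gates. Cd70 joined them where gate and cluster agreed and where cells were left ungated only at 4 or more UMIs of a second lineage. Leaving out CD4 T cells with Il2ra or Ikzf2 UMIs, which keeps 771 of 1223 and 763 of 1249 cells, was not run for this pair. Compared with CD8 T cells, regulatory T cells were higher for 5 of the 8 genes tested, against 5.35% of all genes. Tnfrsf4 was 16.1-fold and 12.9-fold higher there, Tnfrsf18 7.19-fold and 6.57-fold, Cd40lg 4.73-fold and 7.55-fold, Tnfrsf9 4.4-fold and 2.96-fold, and Tnfsf8 3.13-fold and 3.18-fold.

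Gamma-delta T cells differed from CD8 T cells in fewer of these genes. Cd40lg was higher by log2 ratios of 2.14 and 3.38, where 5.05% of genes tested were higher. Tnfrsf4 (-1.01 and -1.99) and Tnfsf4 (-2.06 and -5.25) were lower, where 4.88% were. The Tnfsf4 value of the library labelled NOD.Cxcl16-/- rests on a gamma-delta level of 0.841 CPM.

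Migratory dendritic cells exceeded B cells at least 2-fold in both libraries for 4 of the 6 genes tested, against 12.7% of 10666 genes. Cd40 was 4.53-fold and 3.08-fold higher, and the log2 ratios were 7.45 and 4.83 for Cd70, 3.33 and 3.45 for Tnfrsf4 and 3.23 and 3.89 for Tnfrsf9. Cd70 rested on 2 and 10 UMIs in B cells, and its WT NOD value ranged from 3.15 to 11 under the alternatives. Cd27 was lower, at log2 ratios of -1.10 and -1.09 on 3 UMIs per library in migratory dendritic cells, where 16.3% of genes were lower. Against other myeloid cells, where 4.28% of genes were higher, the same 4 were higher: Cd70 22-fold and 18.5-fold, Tnfrsf4 21.8-fold and 14.6-fold, Tnfrsf9 4.71-fold and 4.62-fold, and Cd40 3.24-fold and 2.59-fold. Tnfrsf4 in migratory dendritic cells stood at 90.5 CPM (74.2 to 109) and 42.8 CPM (34 to 53.1), and the summed T-cell marker list at 3.38 and 3.65 CPM in the same cells. The summed regulatory T list (Ikzf2, Il2ra, Ctla4) stood there at 66.0 and 38.6 CPM, of which Il2ra made 49.1 and 20.3 CPM.

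Partner genes that complete these receptor-ligand pairs were measured in the same gates. Tnfsf9, the 4-1BB ligand, stood at 259 and 192 CPM in migratory dendritic cells, 248 and 209 CPM in cDC2, 134 and 113 CPM in cDC1, 94.6 and 115 CPM in other myeloid cells and 61.7 and 70.6 CPM in macrophages, and at 2.9 to 10.1 CPM in the T gates. Tnfsf18, the GITR ligand, was counted at most 4 times in any gate of a library. Tnfrsf8, which encodes CD30, the receptor for the Tnfsf8 product, was at 29 and 25.7 CPM in regulatory T cells, 15.3 and 16.7 CPM in CD8 T cells and 6.1 and 6.3 CPM in CD4 T cells. Tnfrsf11a, the RANK gene, was at 64.3 and 47.5 CPM in migratory dendritic cells and 11.1 and 24 CPM in macrophages.

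Of the 24 partner and pathway genes listed (ligands, receptors, TRAF adaptors and NF-kappaB genes), 20 could be tested between regulatory and CD4 T cells and 1 was called, Tnfrsf8, higher by log2 ratios of 2.25 and 2.02. Between migratory dendritic and B cells 9 of 19 were higher, among them Tnfsf9 (log2 ratios 5.96 and 6.03), the adaptor Traf1 (3.41 and 2.87) and the NF-kappaB subunit Relb (3.01 and 2.64), and the adaptor Traf5 was lower. Between CD4 and CD8 T cells Tnfrsf25, the death receptor 3 gene, was higher in CD4 T cells (1.96 and 2.14) and Tnfrsf8 lower (-1.32 and -1.40). Regulatory T cells exceeded CD8 T cells for 5 of 20: Nfkb1, Nfkbia, Tnfrsf1b, Tnfrsf25 and Traf3.

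Shares of cells in which a gene was counted were taken at an equal depth of 2000 UMIs per cell, leaving out shallower cells (427 and 65 CD8, 88 and 29 CD4, 25 and 12 regulatory T, 172 and 71 B cells in WT NOD and the library labelled NOD.Cxcl16-/-). Tnfrsf4 was counted in 72.3% and 82.2% of regulatory T cells, 46.2% and 46.1% of CD4 T cells and 8.67% and 11.4% of CD8 T cells. B cells, which are not known for OX40, gave 1.08% and 0.785% at the same depth. Without thinning the shares were 84.7% and 91.0% in regulatory T cells, 60.5% and 61.1% in CD4 T cells, 18.0% and 22.4% in CD8 T cells and 3.21% and 1.97% in B cells, at median depths of 4531 and 4970.5, 4207 and 4678, 4901 and 5570.5, and 4392 and 4534 UMIs. The order of the gates was the same either way.

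Regulatory T cells also differed from CD4 and CD8 T cells in how many of the inducible receptors were counted in 1 cell. At 2000 UMIs, all 3 of Tnfrsf4, Tnfrsf9 and Tnfrsf18 were found in 74 of 249 regulatory T cells of WT NOD (29.7%, exact binomial interval 24.1 to 35.8) and 108 of 388 of the library labelled NOD.Cxcl16-/- (27.8%, 23.4 to 32.6). The same held for 3.7% and 3.4% of CD4 T cells and 0.6% and 1.1% of CD8 T cells. No receptor of the 3 was found in 12.4% and 8.0% of regulatory T cells, 39.1% and 42.0% of CD4 T cells and 70.4% and 67.4% of CD8 T cells. Without thinning, all 3 were found in 50.7% and 57.8% of regulatory T cells, 12.3% and 13.9% of CD4 T cells and 4.63% and 7.86% of CD8 T cells.

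**Figure D2:**
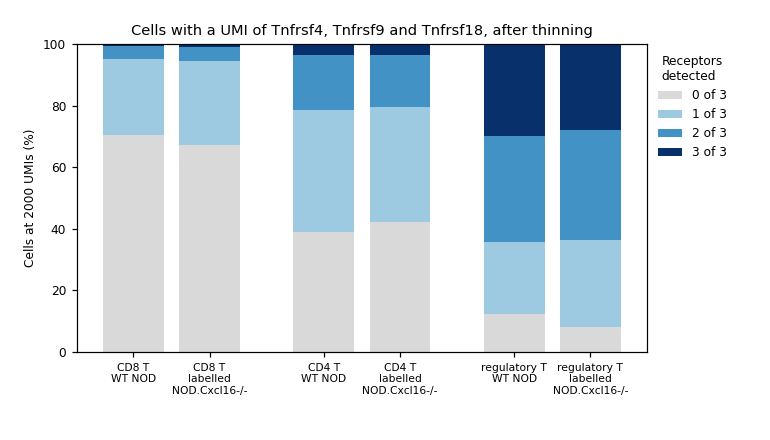
Share of cells (percent, bars stacked to 100) with 0, 1, 2 or 3 of the receptors Tnfrsf4, Tnfrsf9 and Tnfrsf18 counted, after thinning each cell to 2000 UMIs, for the CD8, CD4 and regulatory T gates of both libraries. All 3 receptors were counted in 29.7% and 27.8% of regulatory T cells and in at most 3.7% of CD4 or CD8 T cells.

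In regulatory T cells the receptors tended to be counted in the same cells. There, Tnfrsf18 was counted in 72.3% (63.3 to 80.1) of Tnfrsf9-positive cells and 51.5% (42.6 to 60.4) of Tnfrsf9-negative cells of WT NOD, all at 2000 UMIs. The library labelled NOD.Cxcl16-/- gave 65.0% (57.6 to 71.9) and 46.2% (39.2 to 53.2). Tnfrsf9 was counted in 56.7% and 50.2% of Tnfrsf4-positive regulatory T cells against 24.6% and 29.0% of the negative ones. Without thinning the Tnfrsf18 shares were 89.0% and 90.6% against 70.9% and 68.1%, and the Tnfrsf9 shares were 66.4% and 69.0% against 23.8% and 38.9%. Tnfrsf18 was counted at 2000 UMIs in 66.7% and 58.3% of Tnfrsf4-positive regulatory T cells against 47.8% and 39.1% of the negative ones. The intervals of this pair overlapped in WT NOD only. Each pair thus ran the same way in both libraries. In CD8 T cells the intervals overlapped for Tnfrsf18, counted at 2000 UMIs in 16.3% of Tnfrsf9-positive and 13.3% of negative cells of WT NOD (intervals 12.0 to 21.5 and 11.7 to 15.0) and in 14.8% and 12.5% of the other library. Tnfrsf9 was counted in 17.0% of Tnfrsf4-positive and 12.3% of Tnfrsf4-negative CD8 T cells of WT NOD, with overlapping intervals, and in 27.2% and 13.5% of those of the other library, where they did not overlap. Tnfrsf18 by Tnfrsf4 was apart in CD8 T cells of both libraries, at 29.2% against 12.2% and 21.5% against 11.7%. In CD4 T cells Tnfrsf18 was counted in 46.2% and 33.6% of Tnfrsf9-positive cells against 27.6% and 22.5% of the negative ones. Tnfrsf9 was counted there in 14.7% and 19.0% of Tnfrsf4-positive cells against 6.87% and 5.94%. The tendency was thus not particular to regulatory T cells.

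CD4 T cells in which Tnfrsf4 was counted more often carried the CD30 ligand. At 2000 UMIs Tnfsf8 was found in 39.7% (35.5 to 44.0) of Tnfrsf4-positive and 20.8% (17.6 to 24.2) of Tnfrsf4-negative CD4 T cells of WT NOD. The corresponding shares were 45.6% (41.5 to 49.9) and 20.7% (17.7 to 24.0) in the one labelled NOD.Cxcl16-/-. Tnfsf11 was found in 34.0% and 38.9% of Tnfsf8-positive CD4 T cells and in 14.1% and 14.5% of the negative ones. In CD8 T cells, where both ligands are rare, Tnfsf11 was found in 11 of 64 and 16 of 80 Tnfsf8-positive cells (17.2% and 20%) against 2.88% and 3.45% of the others. Without thinning, the CD4 shares of Tnfsf8 were 49.6% and 57.7% against 22.4% and 22.2%, those of Tnfsf11 were 53.9% and 58.2% against 16.4% and 20.3%, and the CD8 shares 25.2% and 30.6% against 6.61% and 8.29%. The 2 ligands therefore tended to be counted in the same cells in both gates.

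T cells with a UMI of Nrn1, which encodes neuritin, a protein known from anergic T cells, differed from the rest of their gate in several of these genes. They made up 196 of 2399 CD8 T cells in WT NOD and 216 of 1450 in the library labelled NOD.Cxcl16-/- (8.2% and 14.9%), 12.9% and 19.5% of CD4 T cells and 17.2% and 11.2% of regulatory T cells. Their median depth was higher, 6585.5 and 7712 UMIs against 4801 and 5407 in CD8 T cells. The part of this depth in the CD8 ratios was not tested.

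Among CD8 T cells, 4 of the 8 genes tested were at least 2-fold higher in the Nrn1-positive cells of both libraries, against 0.891% of all genes tested. Tnfrsf4 stood at 184 against 55.6 CPM in WT NOD and 203 against 67.4 CPM in the library labelled NOD.Cxcl16-/-. Tnfsf11 stood at 71.2 against 15.8 CPM and 68.5 against 18.9 CPM, and Tnfsf4 at 44.3 against 17.1 CPM and 61.7 against 23.7 CPM. Tnfsf8 stood at 45.2 against 21.1 CPM and 116 against 23 CPM. Tnfrsf9 was higher by log2 ratios of 0.78 and 0.49 and was not called.

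Among CD4 T cells, Tnfsf4 was the 1 gene called, at 26.1 against 6.22 CPM and 35.1 against 7.16 CPM, where 1.27% of genes were higher. Tnfsf8 was close to the limit at 701 against 353 CPM and 737 against 283 CPM, as was Tnfsf11 at 304 against 152 CPM and 425 against 148 CPM. After thinning to 2000 UMIs Tnfsf8 and Tnfsf11 passed the limit. Tnfsf4 then had larger log2 ratios of 2.48 and 3.02 but 15 UMIs in WT NOD, too few to be called. The CD40 ligand gene Cd40lg stayed level, with log2 ratios of 0.00 and 0.13. Among regulatory T cells, where 0.309% of genes were higher, Tnfsf8 stood at 188 against 40.4 CPM and 326 against 98.7 CPM, and Tnfsf11 at 69.7 against 25.7 CPM and 267 against 48.4 CPM. Tnfrsf4, which separated the Nrn1-positive cells in the CD8 gate, had log2 ratios of -0.15 and 0.05 in regulatory T cells.

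**Figure D3:**
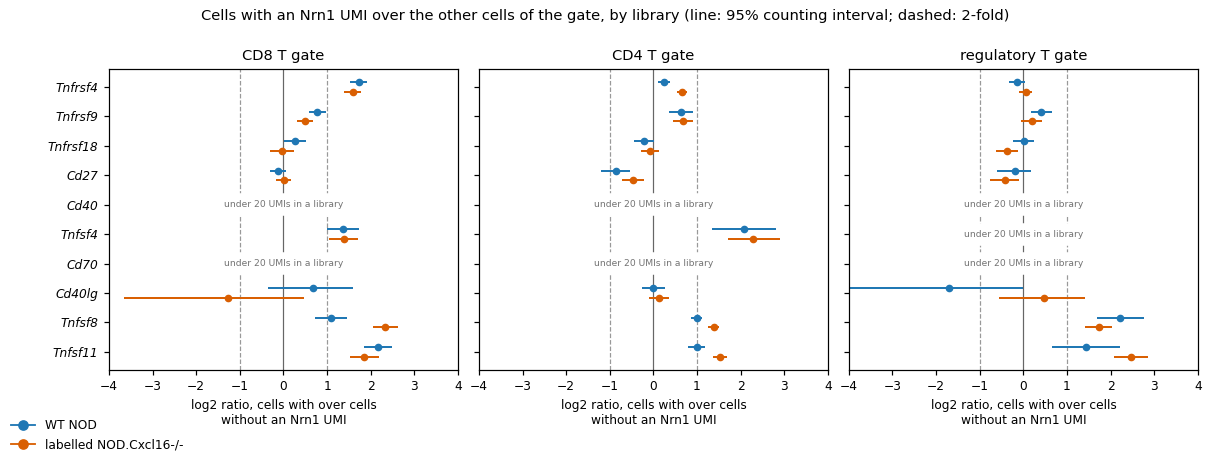
Log2 ratio of CPM in cells with a Nrn1 UMI over the other cells of the same gate, for each of the 10 genes, in CD8, CD4 and regulatory T cells and in both libraries, with 95% intervals and dashed lines at 2-fold. In CD8 T cells Tnfrsf4, Tnfsf4, Tnfsf8 and Tnfsf11 lie beyond the upper line in both libraries; in regulatory T cells Tnfsf8 and Tnfsf11 do.

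Further cell states were compared with the rest of their gate. CD4 T cells with Cxcr5 or Il21 UMIs, genes of follicular helper cells, held Tnfsf11 at 305 against 117 CPM in WT NOD and 335 against 160 CPM in the library labelled NOD.Cxcl16-/-, where 1.55% of genes were higher. CD8 T cells with those UMIs held Tnfsf4 at 46.8 against 16.7 CPM and 74.7 against 26.7 CPM, where 0.356% were. Cycling CD8 T cells, defined by Mki67, Top2a and Birc5, held less Tnfsf8, at 10.7 against 36.4 CPM and 12.9 against 63.8 CPM, where 5.59% of genes were lower.

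Cells with inhibitory-receptor UMIs (Pdcd1, Lag3, Havcr2, Entpd1) were not separated by these genes at the 2-fold limit in the CD8 gate, where 1.83% of genes tested were higher. Tnfrsf9 stood at 130 against 73.5 CPM and 163 against 90 CPM. Tnfsf4 stood at 30 against 8.15 CPM in WT NOD and 40 against 21.2 CPM in the library labelled NOD.Cxcl16-/-, so that it passed the limit in 1 library. In the CD4 gate Tnfrsf4 stood at 797 against 360 CPM and 734 against 401 CPM in such cells and was not called either, where 2.19% were higher. Regulatory T cells with these UMIs held less Tnfsf8 and Cd40lg, with log2 ratios of -1.5 and -1.09 for Tnfsf8 and -1.92 and -1.31 for Cd40lg, where 0.43% of genes were lower. Regulatory T cells with Nr4a1, Egr1 or Egr2 UMIs, immediate targets of T-cell receptor signalling, held more Tnfsf11 by log2 ratios of 1.90 and 1.70, where 0.551% were higher.

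Between the libraries, a gene is given as higher or lower where its CPM differed at least 1.5-fold with at least 20 UMIs in all. With 1 library in each group, such a ratio compares these libraries and not the genotypes. In CD8 T cells 4 of the 10 genes passed the limit, against 9.92% of the 12154 genes tested. The ligands Tnfsf8 (ratio 1.78, interval 1.56 to 2.03) and Tnfsf4 (1.54, 1.33 to 1.79) were higher in the library labelled NOD.Cxcl16-/-. Cd40lg (0.626, 0.39 to 0.982) and Cd40 (0.497, 0.226 to 1.01) were lower on 67 and 29 and on 32 and 11 UMIs, and both are near absent from CD8 T cells. The receptors Tnfrsf4 (1.34), Tnfrsf9 (1.25), Cd27 (1.15) and Tnfrsf18 (0.909) stayed inside the limit, and so did Tnfsf11 (1.29). Of the 406 Tnfsf8 UMIs of WT NOD, 51 came from 1 cell, and without the cell with the most UMIs in each library the ratio was 1.92. The median log2 ratio was 0.26 for the 10 genes and 0.03 for all genes. The CD8 gate was spread unequally over clusters in the 2 libraries: cluster 6 held 17.3% and 29.2% of it, cluster 8 11.0% and 1.72%, and cluster 1 7.25% and 1.03%. With cells kept only where gate and cluster agreed, the ratios were 2.49 for Tnfsf8 and 1.56 for Tnfsf4.

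The Tnfsf8 ratio of CD8 T cells was unequal across states. Nrn1-positive CD8 T cells went from 45.2 to 116 CPM (ratio 2.57, 2.04 to 3.26), and the other CD8 T cells from 21.1 to 23 CPM (1.09, 0.91 to 1.3). CD8 T cells with an Ifng UMI went from 15.4 to 49.5 CPM (3.22, 2.64 to 3.94), and those without from 37.2 to 36.6 CPM (0.98). The intervals of the paired ratios did not overlap for Nrn1, and no replicate test of the difference can be made. The Tnfsf4 ratio was alike in Nrn1-positive and other CD8 T cells, at 1.39 and 1.38. The summed islet endocrine genes stood at 40 and 119 CPM in the CD8 gate of the 2 libraries, and their part in these ratios was not tested.

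In regulatory T cells 2 of the 8 genes tested passed the limit, against 13.1% of 9615 genes either way and 6.17% higher, and both were ligands. Tnfsf11 had a ratio of 2.36 (1.79 to 3.14) and Tnfsf8 of 1.81 (1.49 to 2.21). Single cells gave 62 of the 266 Tnfsf11 UMIs and 58 of the 427 Tnfsf8 UMIs of the library labelled NOD.Cxcl16-/-. Without the cell with the most UMIs in each library the ratios were 2.56 and 1.77. At 2000 UMIs per cell they were 1.25 and 2.22, and where gate and cluster agreed they were 1.85 and 1.35, so each ratio fell under 1.5 under 1 of these settings. Tnfsf11 was higher in both parts of the gate, going from 69.7 to 267 CPM in Nrn1-positive cells (3.84), and from 25.7 to 48.4 CPM in the others (1.88). The receptors Tnfrsf4 (1.07), Tnfrsf9 (0.839), Tnfrsf18 (0.83) and Cd27 (1.16), and the ligand Cd40lg (0.999), stayed inside the limit.

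In CD4 T cells 2 of the 10 genes passed, against 9.64% of 11409 genes, both sparse. Cd70 had a ratio of 0.297 (0.167 to 0.507), or 0.451 without the cell with the most UMIs in each library, and Cd40 one of 0.557 (0.263 to 1.14) on 22 and 14 UMIs. The well-counted genes of this gate stayed inside the limit. The intervals of Tnfsf8 (0.96) and Cd40lg (0.917) covered 1, whereas those of Tnfsf11 (1.22, 1.14 to 1.31) and Tnfrsf18 (0.755, 0.698 to 0.817) did not. Tnfsf4 had a ratio of 1.45 (1.07 to 1.97), and passed the limit under 6 alternatives, among them thinning (1.86), matching gate and cluster (1.67) and leaving out cells with Il2ra or Ikzf2 UMIs (2.23). Tnfsf11 stood at 304 and 425 CPM in Nrn1-positive CD4 T cells (1.4) and at 152 and 148 CPM in the rest (0.97).

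Among the remaining T gates, other T cells had more Tnfsf4 in the library labelled NOD.Cxcl16-/- (1.86, 1.37 to 2.55) and less Cd40 (0.511), where 10.7% of genes were called. Gamma-delta T cells had more Tnfsf11 (2.07, 1.31 to 3.33) and less Tnfsf8 (0.637), where 17.4% were called. Tnfsf4 was thus higher past the limit in the CD8 and other T gates and just inside it in the CD4 gate. Its regulatory T ratio of 1.07 rests on 7 and 13 UMIs (0.397 to 3.17), and the gamma-delta gate had 7 and 1 UMIs, too few to compare. The summed islet endocrine genes went from 14.9 to 109 CPM in gamma-delta and from 96.6 to 257 CPM in other T cells, and their part was not tested.

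**Figure D4:**
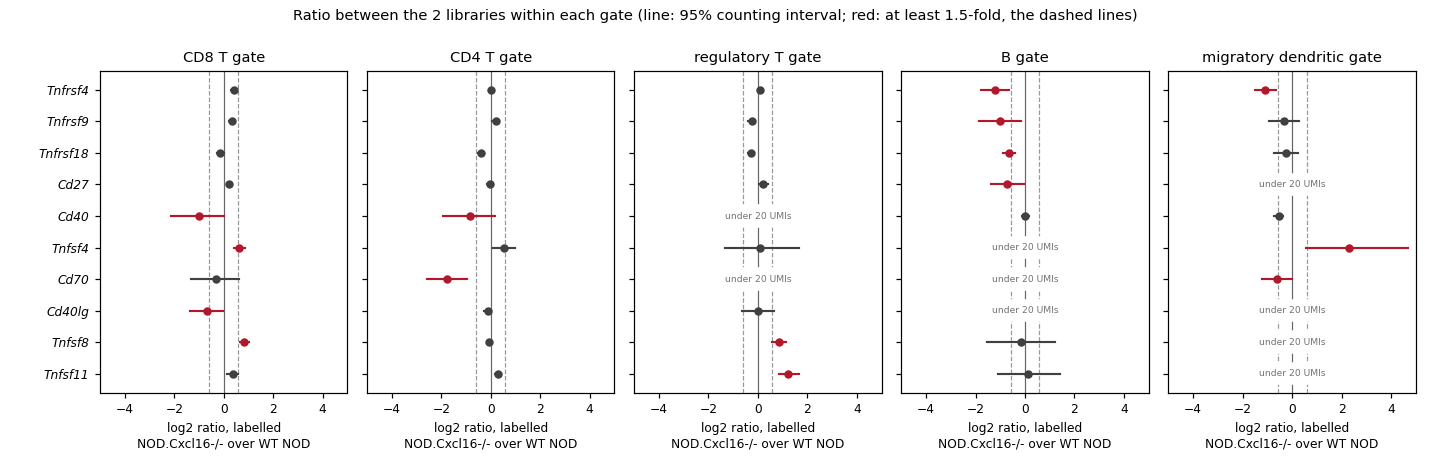
Log2 ratio of CPM in the library labelled NOD.Cxcl16-/- over WT NOD for the 10 genes in 5 gates, with 95% intervals, dashed lines at 1.5-fold and called genes in red. Tnfsf8 and Tnfsf4 lie above the upper line in CD8 T cells, Tnfsf8 and Tnfsf11 in regulatory T cells, and 4 receptors lie below the lower line in B cells.

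In B cells 4 of the 7 genes tested were lower in the library labelled NOD.Cxcl16-/-, against 5.42% of 11538 genes lower and 10.6% called either way. They were Tnfrsf4 (0.433, 0.289 to 0.641), Tnfrsf9 (0.502, 0.272 to 0.904), Cd27 (0.611, 0.382 to 0.969) and Tnfrsf18 (0.642, 0.536 to 0.767). Tnfrsf18 stood at 73.2 and 66.5 CPM in CD8 T cells against 33.7 and 21.6 CPM in B cells. All 4 of these receptors stood higher in each T gate than in B cells. The summed T-cell marker list moved with them, at 14 and 7 CPM in the B gate, and its part in the result was not tested. Where gate and cluster agreed, the ratios were 0.919 for Tnfrsf4, 0.682 for Tnfrsf9, 0.885 for Cd27 and 0.666 for Tnfrsf18. Cd40, the receptor B cells are known for, had a ratio of 1.01 (0.911 to 1.11).

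In migratory dendritic cells 3 of the 6 genes tested passed the limit, against 23.2% of 8299 genes. Tnfrsf4 (0.473, 0.35 to 0.636) and Cd70 (0.654, 0.434 to 0.987) were lower in the library labelled NOD.Cxcl16-/-, and Tnfsf4 was higher (4.93, 1.5 to 25.6) on 3 and 24 UMIs. The regulatory T list above and the summed islet endocrine genes (152 and 308 CPM) also differed between the libraries in this gate, and their part was not tested. Where gate and cluster agreed, which left 48 and 53 cells, the Tnfrsf4 ratio was 0.36 and that of Cd70 0.824. Cd40 had a ratio of 0.685 (0.601 to 0.78) and was not called. The same Cd40 ratio of 0.685 (0.541 to 0.87) was found in macrophages, where Tnfrsf18 was lower at 0.531 and 25.1% of genes were called.

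The migratory dendritic gate fell mainly into 2 clusters, made without the 10 genes, and its composition differed between the libraries. In WT NOD, cluster 7 held 50 of the gated cells and cluster 22 held 48 (49.0% and 47.1%). In the library labelled NOD.Cxcl16-/- they held 96 and 53 (63.6% and 35.1%). The most common gate of cluster 7 was a different one. The migratory dendritic cells kept where gate and cluster agreed were therefore those of cluster 22 alone. The maturation genes Fscn1 (1725 and 906 against 541 and 677 CPM) and Ccl22 (408 and 233 against 54.8 and 29.4 CPM) were higher in cluster 22, and Cfp, a monocyte and dendritic cell gene, was higher in cluster 7 (236 and 294 against 7.26 and 49.8 CPM). Fscn1 and Ccl22 are gate genes, so this is a description only.

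Cd40 and Cd70 followed cluster 22. Cd40 stood there at 588 and 474 CPM against 174 and 131 CPM in cluster 7, and Cd70 at 70.8 and 58.3 against 14.9 and 9.23 CPM. Tnfrsf4 differed between the libraries in cluster 22, at 158 and 56.9 CPM, and stood at 33.2 and 35.3 CPM in cluster 7. Tnfrsf9 leaned the other way across clusters, at 25.4 and 15.6 CPM in cluster 22 and 46.5 and 36.1 CPM in cluster 7. It rested on 14 and 11 against 28 and 43 UMIs, and the intervals of the clusters overlapped in both libraries. Its ligand gene Tnfsf9 stood at 321 and 290 against 204 and 137 CPM, and Tnfrsf11a, the RANK gene, at 61.7 and 49.8 against 68.1 and 47 CPM. Tnfsf4 stood at 4.98 and 17.6 CPM in cluster 7 against 0 and 4.27 CPM in cluster 22. This rested on 3 and 21 against 0 and 3 UMIs, with overlapping intervals in both libraries.

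**Figure D5:**
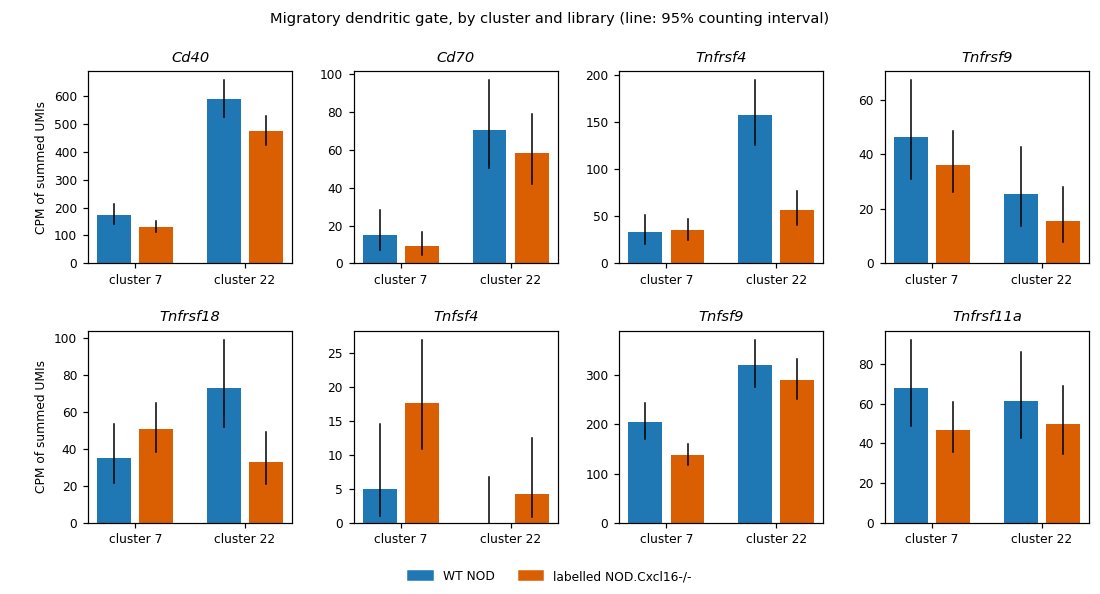
Level (CPM of summed UMIs, with 95% Poisson intervals) of 6 of the 10 genes and of the partner genes Tnfsf9 and Tnfrsf11a in the cells of the migratory dendritic gate that fell in cluster 7 or cluster 22, by library. Cd40 and Cd70 are higher in cluster 22 in both libraries, and Tnfrsf4 separates the libraries in cluster 22 but not in cluster 7.

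The partner and pathway genes were compared between the libraries at the same limit. None of 20 tested passed the limit in CD4 T cells and none of 18 in B cells. In CD8 T cells 1 of 20 did, Tnfsf14, which encodes LIGHT, at a ratio of 0.62. In regulatory T cells the adaptor Traf5 was higher, from 58.6 to 91.6 CPM (1.56), and Tnfsf9 (0.29), Tnfrsf25 (0.45) and Tnfrsf14 (0.66) were lower, of 19 tested. In migratory dendritic cells Tnfrsf11b, the gene of the soluble RANKL decoy osteoprotegerin, was 3.21-fold higher on 5 and 26 UMIs, and Traf2 was lower at 0.58, of 18 tested.

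The pattern of each gene over the 11 gates with at least 50 cells in both libraries was set beside that of 9994 other genes, as a Pearson correlation of log2(CPM + 1) over 22 points. The points of a library share its depth, and the coefficients are descriptions. Tnfrsf4 was most like Lrig1 (0.954), Ikzf4 (0.942) and Nrn1 (0.934), and Tnfrsf9 most like Ikzf2 (0.962), Rora (0.945) and S100a13 (0.943). Tnfrsf18 was most like Adipor2 (0.939), Cd27 most like Acsbg1 (0.980), and Cd40 most like Marcks (0.972), Nrros (0.966) and Irf5 (0.965). Cd40lg was most like Il21 (0.951), and Il21 was also among the 3 nearest to Tnfsf8 (0.936), whose nearest was Galnt9 (0.938). Tnfsf11 was most like Gm39323 (0.948) and Bcl11b (0.947). Tnfsf4 and Cd70 had no neighbour as close, at 0.841 for Atp5b and 0.88 for Tmem19.

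Among the 10 genes themselves, the 5 highest coefficients were 0.918 for Cd40lg with Tnfsf8, 0.918 for Tnfrsf9 with Tnfrsf18, 0.912 for Cd40lg with Tnfsf11, 0.905 for Tnfrsf9 with Cd27 and 0.894 for Tnfsf8 with Tnfsf11. Cd40 ran against Tnfsf11 (-0.802) and Cd27 (-0.789).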

How the data were processed

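The authors deposited raw UMI counts per gene and barcode for each library, made with Cell Ranger 7.0.1 per the file headers and the submitters' processing notes, against mm10 per the submitters' processing notes. The annotation and the intron and strand settings are not given in the sources used here. From these counts, barcodes with at least 500 genes and at most 10% mitochondrial UMIs were kept. Simulated-neighbour doublets (1358 and 862 barcodes, 11.1% and 8.44%) were removed. Cells were gated at 2 or more UMIs of a lineage's markers (3 for migratory dendritic cells and macrophages). Cells reaching 2 lineages were left ungated, except that T gates kept cells that also reached the NK or ILC2 markers. The plasma gate kept cells that also reached the B markers. Regulatory T cells had a Foxp3 UMI and none of Cd8a, Cd8b1 or Trdc, with or without Cd4. CD8 T cells had Cd8a or Cd8b1, CD4 T cells Cd4 and gamma-delta T cells Trdc, each without the others and without Foxp3. Leiden clusters were made without the 10 genes.

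UMIs were summed per gate and library and given as CPM with exact Poisson intervals. Shares have Clopper-Pearson intervals and ratios conditional binomial intervals, all 95% and all for counting error only. Limits were 1.5-fold between libraries and 2-fold, the same way in both libraries, between sets of cells, with at least 20 UMIs. With 1 library in each group no p-value was computed. The 10 genes, which are all named, and the lists were chosen with earlier results of these data known; the likeness rule names the 3 nearest genes, not all of which are printed. Coordinates are from GENCODE M21 (GRCm38) and promoters from RefSeq (GRCm38.p6). The ratio and call steps were tested on simulated data. Python 3.11.15, numpy 2.4.6, scipy 1.17.1, pandas 2.3.3 and scanpy 1.11.5 were used.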

Additional observations from a re-analysis of the deposited data

Results flagged for a closer look

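For 3 values the 2 libraries pointed in opposite directions, and in each case the difference was not tested, since each group has 1 library. The log2 ratio of Tnfsf8 in Ifng-positive over other CD8 T cells was -1.27 in WT NOD and 0.43 in the library labelled NOD.Cxcl16-/-. Tnfsf8 in gamma-delta over CD8 T cells had log2 ratios of 0.706 and -0.776. Tnfsf11 in inhibitory-receptor over other CD8 T cells had log2 ratios of 0.648 and -0.335. For Tnfsf8, 51 of the 406 UMIs of the WT NOD CD8 gate came from 1 cell.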

How the results depend on the processing

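No paired analysis was possible because each group has 1 library, and for the same reason no library could be left out. Of 1267 values of single genes under the alternatives run, 1075 moved by less than their interval, 185 moved further and 7 reversed. A reversal was counted only for a ratio past the fold limit, and other changes of sign are among the 1075 and 185. Of 102 counts, 81 stayed within 1.5 times and 21 did not. Leaving out the cell with the most UMIs of a gene was chosen after seeing the data. The number of the 10 genes called between libraries fell from 4 to 2 in CD8, from 2 to 1 in regulatory T and from 4 to 1 in B cells where gate and cluster agreed. It fell from 2 to 1 in CD4, from 2 to 1 in regulatory T, from 4 to 2 in B and from 3 to 1 in migratory dendritic cells after thinning to 2000 UMIs. It fell from 4 to 1 in CD8, from 2 to 1 in CD4 and from 4 to 1 in B cells with 5 CPM added. In CD4 T cells thinning left Cd40 and Cd70 with 10 and 11 UMIs and called Tnfsf4 instead (ratio 1.86). Of the calls lost to thinning in B and migratory dendritic cells, Tnfrsf9 (19 UMIs), Cd70 (13) and Tnfsf4 (7) were under the minimum. Where gate and cluster agreed, migratory dendritic cells kept 3 calls, Tnfrsf4, Tnfrsf9 (0.616) and Tnfrsf18 (0.451) lower, without Tnfsf4 and Cd70. In CD4 T cells without Il2ra and Ikzf2 UMIs it fell from 2 to 1. The count of genes higher in migratory dendritic than B cells fell from 4 to 2 after thinning, which left Tnfrsf9 with 19 UMIs in WT NOD (log2 ratios 3.32 and 4.60) and Cd70 with 7 and 8 UMIs, under the minimum of 20. The count higher in Nrn1-positive CD4 T cells, 1, was 2 with at least 200 genes per barcode, with doublets kept, after thinning and without the cell with the most UMIs. It was 3 with cells ungated only at 4 UMIs of a second lineage and when CPM were averaged over cells. The count higher in inhibitory-receptor CD8 T cells, 0, was 1 when CPM were averaged over cells, after thinning and without the cell with the most UMIs.

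The reversed log2 ratios all belong to sparse genes. Cd40 between libraries went from -1.01 to 0.51 in CD8 and from -0.85 to 1.87 in CD4 T cells where gate and cluster agreed. Cd70 between libraries in CD4 T cells went from -1.75 to 0.19 without Il2ra and Ikzf2. Cd70 in regulatory over CD4 T cells of WT NOD went from -1.51 to 0.12 when CPM were averaged over cells, 1.60 after thinning and 1.28 without Il2ra and Ikzf2. Cd27 in migratory dendritic over B cells of WT NOD went from -1.10 to 1.19 after thinning. The cause of these reversals was not tested. Some ratios inside the limit, not counted as reversed, also changed sign, among them those of the well-counted Tnfrsf4. Its log2 ratio between libraries in CD8 T cells was 0.42, and the lowest value under the alternatives was -0.07. For Nrn1-positive over other CD4 T cells of WT NOD these values were 0.24 and -0.29. The calls of Tnfsf8 in CD8 T cells between libraries held in every setting run, with log2 ratios from 0.67 to 1.32, and that of Tnfsf4 in all but 1, from 0.52 to 0.78, the exception being 5 CPM added. Tnfrsf9 and Tnfrsf18 were called higher in regulatory than CD4 T cells in every setting run.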
